A study of Mus musculus with 6 samples.

Results

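The 73 genes described here were well counted in astrocytes that carried an empty vector and almost absent in astrocytes that carried a JAG1 vector. A gene was included when it had at least 30 raw reads in each of 3 control libraries and at most 5 raw reads in each of 3 JAG1 libraries. Of 23282 gene rows, 10305 reached 30 reads in every control library, and 77 of these, or 0.747%, also stayed within 5 reads in every JAG1 library. The choice left out 4 of these rows by name, which are not described here, and 73 remained. The same read counts chose the genes, so their fall is a description and carries no test.

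The cells were mouse astrocytes from brain tissue, named Ink4a-/- in the labels and Ink4a/Arf-/- in the study, and both groups lack this tumor suppressor locus. The control cells were transfected with pcDNA3.1-puro, an empty plasmid with a puromycin resistance gene, and carry the genotype WT in the labels. The JAG1 cells were transfected with pcDNA3.1-JAG1-puro and carry the genotype JAG1 overexpression. All cells grew in DMEM with fetal bovine serum. Total RNA was made into libraries with the QuantSeq 3′ mRNA-Seq method, which reads the 3′ end of a transcript about once, so a count does not rise with the length of the transcript and levels of different genes can be set side by side as CPM, the reads of a gene scaled to a common library total. Each group had 3 libraries. Whether these came from separate transfections, and whether the JAG1 cells were 1 clone, is not given in the sources used here, so the spread between libraries may be technical. In bulk RNA, fewer cells that express a gene and less of its RNA in each cell cannot be told apart.

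JAG1 is a membrane ligand of the Notch receptors. In the cell that receives it, Notch is cut and its intracellular part joins the DNA-binding protein RBPJ to switch genes on. JAG1 itself can also be cut, which frees an intracellular fragment that can act in the nucleus. Astrocytes are the star-shaped glia that feed neurons, buffer ions and shape the matrix around synapses, and Notch signaling favors the astrocyte fate during brain development.

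The libraries summed to between 18889751 and 20489062 reads in the control group and between 14341634 and 20071276 in the JAG1 group. For Jag1 itself, 182, 201 and 214 reads were counted in the control libraries and 304, 197 and 227 in the JAG1 libraries. After TMM normalization the level was 10.3 ± 1.18 CPM in control and 14.2 ± 0.862 CPM in JAG1 cells (SD, n = 3 each). The groups did not overlap, and the log2 fold change was 0.46 (SE 0.11, edgeR adjusted p = 0.00446). A transcript from the vector need not end like the mouse gene, so 3′ reads at Jag1 are a limited check of the overexpression. Of 13 astrocyte markers, 8 were tested and 7 were lower in the JAG1 libraries. The summed level of the list was 3294 to 3780 CPM in control and 3358 to 3424 CPM in JAG1 libraries, most of it from vimentin. The defining markers Gfap and Aqp4 were at 0 in every library of both groups, and Fabp7, Slc1a2 and Slc1a3 had at most 3 reads in each. Of 8 microglia markers, 3 were tested, of which Cx3cr1 rose and Tmem119 fell. Aif1, Itgam and P2ry12 had at most 3 reads in every library. Tmem119 is itself among the 73 genes and fell from 2.24 to 0.103 CPM. The summed level of this list was 5.75 to 6.12 CPM in control and 3.58 to 4.61 CPM in JAG1 libraries. Of 7 neuron markers, 3 were tested, of which 2 fell and 1 rose. Dcx, Rbfox3, Snap25 and Syt1 had at most 3 reads in every library. The summed level was 100 to 110 CPM in control against 58.6 to 61.7 CPM in JAG1 libraries. Most of it came from Tubb3, which fell from 78.2 to 8.40 CPM, and Map2, which rose from 25.1 to 51.3 CPM. None of the 8 oligodendrocyte markers passed the test (3.45 to 4.56 against 4.13 to 4.80 CPM in sum). Of 6 endothelial markers only Flt1 was tested, and it rose (1.04 to 1.93 against 4.44 to 4.92 CPM for the list in sum). Cdh5, Cldn5, Kdr and Tek had at most 3 reads in every library. Of 4 ependymal markers only Tmem212 was tested, and it rose (0.296 to 0.376 against 1.10 to 1.21 CPM for the list in sum). Ccdc153 and Rarres2 had at most 3 reads in every library. For the 10 pericyte and meningeal fibroblast markers, 7 were tested, of which 4 fell and 1 rose. Kcnj8, Lum and Rgs5 had at most 3 reads in every library, and the sums were 455 to 475 against 337 to 375 CPM. All 4 Y-linked genes of the marker lists rose, from 120 to 122 CPM in sum to between 249 and 264 CPM, while the other 3 tested genes of the Y chromosome, Gm21693, Gm21708 and Gm3376, fell. None of the 73 genes lies on the Y chromosome. The part of these shifts in the fall of the 73 genes was not tested.

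Together the 73 genes held 10570, 9912 and 10009 reads in the control libraries and 135, 93 and 68 reads in the JAG1 libraries. Scaled by the TMM-normalized library sizes this was 522, 532 and 524 CPM in control and 6.73, 6.40 and 4.13 CPM in JAG1 cells, so that 1.10% of the control level was left. In JAG1 libraries 1, 2 and 3, respectively, 18, 34 and 37 of the genes had no read at all. In every JAG1 library at once, 12 genes were at 0 and 52 genes had 3 reads or fewer. The genes not at 0 kept between 1 and 13 reads over the 3 JAG1 libraries. At this depth, 0 reads do not show that a gene is silent. The mirrored limits, at least 30 reads in each JAG1 library and at most 5 in each control library, were met by 55 rows, which kept 0.614% of their level in the control libraries. No row was left out of these by name, so they stand beside the 77 rows above. The limits are on raw reads and JAG1 libraries 2 and 3 were shallower than every control library, so these counts are not compared at like depth.

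Across all genes, edgeR's quasi-likelihood test called 27.7% of 11712 genes lower and 27.4% higher in JAG1 cells, and 30.9% had all JAG1 libraries below all control libraries. All 73 genes passed the filter on low counts and were called lower, which their choice on this contrast fixes. The control level of the 73 genes was modest. It ran from 1.67 to 41.7 CPM with a median of 4.77 CPM, against a median of 22.3 CPM over all tested genes. Only 3 of the 73 genes lay above that median. Between control libraries the level of a gene varied with a median coefficient of variation of 11.2%, and from 0.621% to 28.4%. Over all 10305 genes with 30 reads in each control library the median was 6.83%. Those genes had a higher median control level, 28.5 CPM, so the variation is not compared at like levels.

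**Figure D1:**
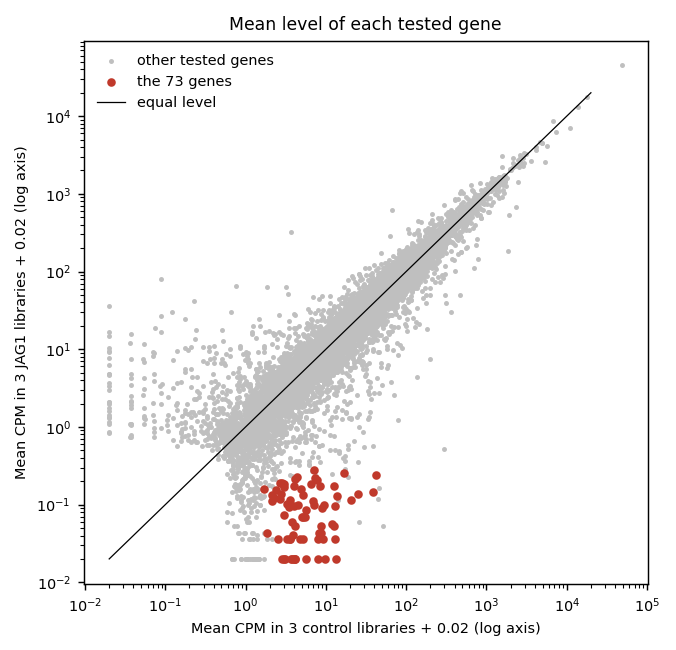
Mean level of each of the 11712 tested genes in 3 control libraries (x axis, CPM) and 3 JAG1 libraries (y axis, CPM), both on log axes with 0.02 CPM added so that 0 can be drawn. The 73 genes (red) lie between 1.67 and 41.7 CPM in control and at 0.262 CPM or less in JAG1 libraries, under the cloud of other genes (grey) along the line of equal level. Grey points among the red ones include the rows left out by name and rows just outside the limits.

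The promoter sequences of the genes differed widely in CpG content. CpG sites cluster in the promoters of broadly active genes, and promoters poor in CpG are more common among genes with a narrow range of tissues. The RefSeq promoter table for GRCm38.p6 holds the 250 bases before to the 50 bases after an annotated start, and gave a promoter for 51 of the 72 gene symbols behind the 73 rows. Of these 51, 18 (35.3%) had an observed/expected CpG ratio of at least 0.6, and the median ratio was 0.447. The same limit was reached by 78.2% of the 8266 promoters of genes with 30 reads in each control library, where the median was 0.797, and by 36.5% of all 27025 promoters in the table, where it was 0.389. Genes at low level had fewer CpG-rich promoters. Under 5 CPM in control, 9 of 28 of the genes (32.1%) reached the limit, against 60.02% of all genes at that level. At 5 to under 10 CPM these were 5 of 15 (33.3%) against 72.0%, and at 10 CPM or more 4 of 8 (50.0%) against 81.9%. These shares are descriptions of the sequence and no test was made of them. The start that these cells use is not known from 3′ reads.

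**Figure D2:**
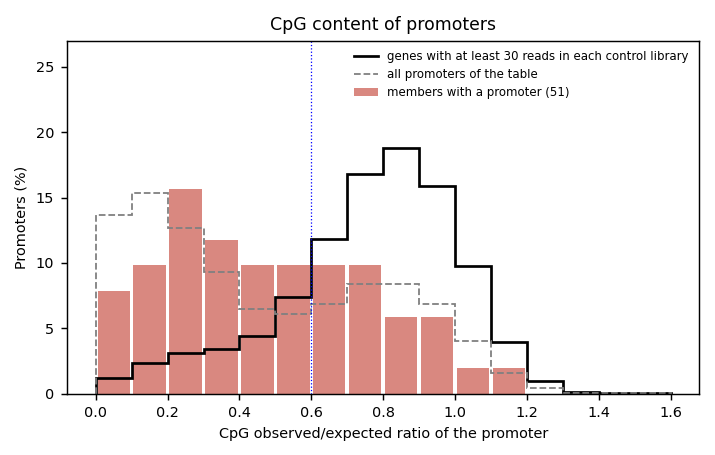
Share of promoters (y axis, %) by observed/expected CpG ratio (x axis, in bins of 0.1) for the 51 members with a promoter (red bars), the 8266 genes with at least 30 reads in each control library (black line) and all 27025 promoters of the table (dashed line). The red bars are spread over the range with a median of 0.447, while the black line peaks near its median of 0.797, and the dotted line marks the limit of 0.6.

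The 5 promoters below were chosen, after the values were seen, to show this range and to show an RBPJ match. They are printed 5′ to 3′ on the strand of the gene, and CpG sites are in capitals in the first 4. Gnao1, at chr8:93810588-93810887 on the plus strand, held 42 CpG sites at a ratio of 1.05. Fendrr, at chr8:121083061-121083360 on the minus strand, held 31 at a ratio of 0.997. The window at the first annotated start of Arhgap32, at chr9:32016375-32016674 on the plus strand, held 3 at a ratio of 0.156. Slc28a2, at chr2:122426185-122426484 on the plus strand, held 1 at a ratio of 0.0614.
Gnao1: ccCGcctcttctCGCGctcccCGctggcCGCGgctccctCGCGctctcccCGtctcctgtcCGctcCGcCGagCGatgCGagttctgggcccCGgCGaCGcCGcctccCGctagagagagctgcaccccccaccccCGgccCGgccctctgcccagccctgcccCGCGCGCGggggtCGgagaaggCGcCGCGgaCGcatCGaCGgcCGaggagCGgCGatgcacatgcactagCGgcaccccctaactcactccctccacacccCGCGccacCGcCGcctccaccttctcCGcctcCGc
Fendrr: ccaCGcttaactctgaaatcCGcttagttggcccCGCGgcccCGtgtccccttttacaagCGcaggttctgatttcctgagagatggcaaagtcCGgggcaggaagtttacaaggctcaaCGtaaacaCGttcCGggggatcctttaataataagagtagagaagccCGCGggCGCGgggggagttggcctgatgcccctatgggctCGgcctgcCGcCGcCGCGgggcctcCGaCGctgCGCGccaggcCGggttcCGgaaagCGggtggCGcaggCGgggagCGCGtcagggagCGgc
Arhgap32: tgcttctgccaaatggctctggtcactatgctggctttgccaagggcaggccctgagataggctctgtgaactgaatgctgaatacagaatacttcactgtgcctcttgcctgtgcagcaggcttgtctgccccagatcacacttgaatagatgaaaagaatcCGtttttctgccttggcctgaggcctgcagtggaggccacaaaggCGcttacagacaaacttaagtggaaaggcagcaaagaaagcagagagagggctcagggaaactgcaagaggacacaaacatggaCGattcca
Slc28a2: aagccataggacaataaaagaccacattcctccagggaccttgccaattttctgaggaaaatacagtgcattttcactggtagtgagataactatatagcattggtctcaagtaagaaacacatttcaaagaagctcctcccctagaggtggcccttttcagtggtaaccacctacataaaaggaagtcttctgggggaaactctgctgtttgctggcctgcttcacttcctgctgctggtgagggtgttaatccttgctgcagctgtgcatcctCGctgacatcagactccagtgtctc
In the promoter of Stox2, at chr8:47352299-47352598 on the minus strand, the capitals mark both matches to TGGGAA, the core letters of the RBPJ site. They begin 244 and 114 bases before the start. This is the only start of Stox2 in the promoter table, and it lies inside the RefSeq span of the gene, chr8:47180048-47413847.
Stox2: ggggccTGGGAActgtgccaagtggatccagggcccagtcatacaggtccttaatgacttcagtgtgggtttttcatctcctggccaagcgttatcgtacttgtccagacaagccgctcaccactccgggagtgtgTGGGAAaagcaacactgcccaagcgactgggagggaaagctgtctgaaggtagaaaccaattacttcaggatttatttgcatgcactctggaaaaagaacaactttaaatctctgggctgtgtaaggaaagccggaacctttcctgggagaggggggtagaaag

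Matches to 6 short motifs were counted on both strands, each motif by itself, so matches to different motifs may share bases. The RBPJ core TGGGAA stood in 13 of the 51 promoters (25.5%), against 22.4% of the promoters of genes with 30 reads in each control library and 25.5% of all promoters. Stox2 was the only member with a pair of them. The SMAD core CAGACA stood in 11 (21.6%, against 14.96% and 21.1%), the E-box CANNTG in 36 (70.6%, against 60.8% and 72.1%) and the AP-1 motif TGANTCA in 5 (9.80%, against 4.42% and 7.92%). The GC box GGGCGG stood in 25 (49.0%, against 67.5% and 35.9%). TATAAA stood in only 2, those of Rbp2 and Dkk2 (3.92%, against 6.62% and 14.2%).

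Cell surface, adhesion and polarity genes were the group with the highest median level, 10.4 CPM in control over 8 genes. Pard6g, an adaptor of the Par polarity complex, was the highest of all 73 genes. In the control libraries it had 772, 850 and 793 reads, or 41.7 ± 3.76 CPM (SD, n = 3), and in the JAG1 libraries 4, 5 and 2. The ratio of the summed normalized counts was 193-fold, with a 95% interval of 108 to 388 that covers counting error only. St8sia2 (chr7:73939119-74013727) makes the polysialic acid chains of the adhesion molecule NCAM. It fell from 375, 399 and 398 reads (20.3 ± 1.53 CPM) to 3, 1 and 1, a ratio of 206-fold (interval 88.2 to 637). Emb, embigin, an adhesion glycoprotein that escorts lactate transporters to the membrane, had 267, 270 and 253 reads in control and 4, 1 and 1 in JAG1 libraries. Ptk7, a receptor-like pseudokinase of planar cell polarity, had 218, 241 and 232 against 1, 0 and 1. Mpzl2, an immunoglobulin-type adhesion protein of epithelia, stood at 8.92 CPM in control. The transmembrane semaphorin Sema6a stood at 5.66 CPM and the clustered protocadherin Pcdhb7 at 4.40 CPM. Robo2, a receptor of the Slit guidance cues, was at 1.80 CPM, with 42, 33 and 30 reads in control and 0, 1 and 0 in JAG1 libraries.

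Genes of the cytoskeleton followed with a median of 8.95 CPM over 8 genes. Tpm2, the muscle-type tropomyosin beta that coats actin filaments, had 346, 301 and 326 reads against 5, 4 and 3, a ratio of 71.4-fold (interval 40.7 to 139). Krt14, a keratin of basal epithelial cells, had 257, 241 and 239 reads against 1, 5 and 1. Arhgap32, a GTPase-activating protein with neuronal roles, had 204, 191 and 176 reads in control and none in any JAG1 library. Against a floor of 3 reads over the summed JAG1 libraries it was at least 168-fold lower. Capn6, a calpain without catalytic activity that stabilizes microtubules, stood at 8.06 CPM and kept 1 read. The actin regulator Eps8l2 was at 5.18 CPM and the microtubule-binding Clip3 at 4.42 CPM. Cdc42ep5, an effector of CDC42 that acts on septins, had 43, 48 and 70 reads in control and none in JAG1 libraries, at least 47.3-fold lower.

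Among regulators of transcription and RNA, the median control level of 9 genes was 7.13 CPM. Eif4e3, which binds the mRNA cap, had 543, 463 and 441 reads (24.9 ± 1.87 CPM) against 3, 3 and 0, a ratio of 212-fold (interval 97.3 to 580). Elavl2 (chr4:91211533-91400108) encodes the neuronal RNA-binding protein HuB. It had 249, 289 and 238 reads in control (13.4 ± 1.82 CPM) and none in any JAG1 library, which put it at least 228-fold lower, the highest bound of the 12 genes at 0. The coregulator Mn1 had 235, 238 and 263 reads against 2, 0 and 0. Zfp941, a zinc finger protein, stood at 8.66 CPM and kept 1 read. Sox5, a SoxD transcription factor of glial and cartilage development, was the gene with the most reads left. It had 134, 132 and 147 reads in control and 4, 5 and 4 in JAG1 libraries, a ratio of 28.0-fold (interval 16.2 to 53.0). Stox2, a winged-helix protein, was at 4.88 CPM. Fendrr, a long noncoding RNA transcribed beside Foxf1, was at 4.15 CPM and kept 2 reads. Snurf and Snrpn share the imprinted locus on chromosome 7 that is active on the paternal copy. Snurf had 93, 63 and 86 reads in control and none in JAG1 libraries, while Snrpn had 88, 61 and 88 against 5, 4 and 1. The 2 genes overlap and whether the counting used strand is not stated, so their reads may not be fully separable.

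**Figure D3:**
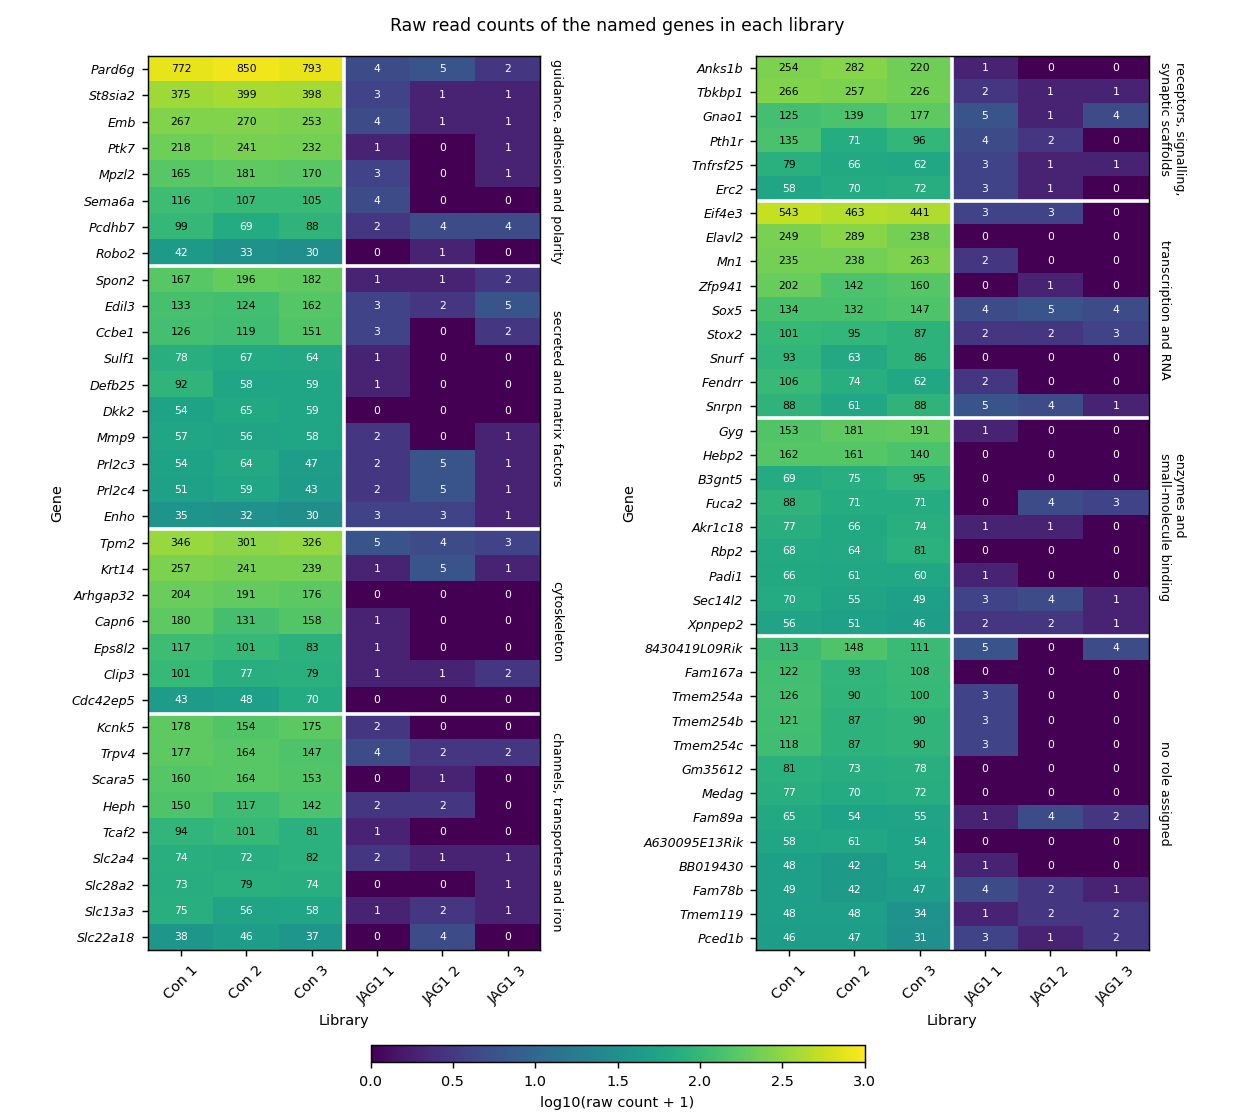
Raw read counts of the genes named here (rows, grouped by known role and ordered by control level within a role) in the 3 control (Con) and 3 JAG1 libraries (columns), printed in each cell and colored by log10(raw count + 1). Control cells run from 30 to 850 reads and JAG1 cells from 0 to 5, as the limits set, and the 12 genes at 0 in every JAG1 library appear in 5 of the 8 roles.

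Receptors, signaling proteins and synaptic scaffolds counted 6 genes with a median of 6.40 CPM. Anks1b, a scaffold of the postsynaptic density, had 254, 282 and 220 reads in control (13.1 CPM) and 1, 0 and 0 in JAG1 libraries. With 1 read left, the ratio of 666-fold had an interval of 119 to 26325. Tbkbp1, an adaptor of the kinase TBK1, had 266, 257 and 226 reads against 2, 1 and 1. Gnao1, the alpha subunit of the neuronal G protein Go, stood at 7.63 CPM and kept 10 reads. Pth1r, the receptor of parathyroid hormone, was at 5.17 CPM with the widest spread of this group, 135, 71 and 96 reads in control. Tnfrsf25, a death-domain receptor of the TNF family, was at 3.56 CPM. Erc2, a scaffold of the presynaptic active zone, was at 3.46 CPM.

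Channels, transporters and iron handling made up 10 genes with a median of 4.35 CPM. Kcnk5, a background potassium channel that responds to pH, stood at 8.74 CPM and Trpv4, a cation channel opened by swelling and stretch, at 8.41 CPM. Of iron handling, the ferritin receptor Scara5 was at 8.24 CPM with 1 read left, and the copper-dependent iron oxidase Heph was at 7.04 CPM with 4 left. Tcaf2, a partner of the cold channel TRPM8, was at 4.77 CPM. The insulin-responsive glucose transporter Slc2a4 (GLUT4) was at 3.94 CPM, the nucleoside transporter Slc28a2 at 3.91 CPM and the dicarboxylate transporter Slc13a3 at 3.25 CPM. Slc22a18, an organic cation transporter of an imprinted cluster, was at 2.09 CPM. None of these 10 genes was at 0 in every JAG1 library, and they kept between 1 and 8 reads each.

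Secreted and matrix factors counted 10 genes with a median of 3.33 CPM, the lowest of the groups with a role. The matrix protein Spon2 had 167, 196 and 182 reads in control (9.43 ± 1.14 CPM) and 1, 1 and 2 in JAG1 libraries. Edil3, an integrin-binding matrix protein, stood at 7.23 CPM, and Ccbe1, which helps activate the lymphatic growth factor, at 6.84 CPM. Sulf1, which trims sulfate groups from heparan sulfate, was at 3.60 CPM and kept 1 read. Defb25, a beta-defensin, was at 3.58 CPM. Dkk2, a secreted modulator of Wnt signaling, had 54, 65 and 59 reads in control and none in JAG1 libraries, at least 52.2-fold lower. Mmp9, a secreted gelatinase, had 57, 56 and 58 reads against 2, 0 and 1, a ratio of 50.2-fold (interval 16.9 to 246). The prolactin relatives Prl2c3 and Prl2c4 stood at 2.85 and 2.65 CPM. Enho, the precursor of the peptide adropin, was the lowest of all 73 genes at 1.67 CPM, with 35, 32 and 30 reads against 3, 3 and 1, and its ratio of 12.2-fold (interval 5.70 to 31.2) was the smallest.

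Enzymes and binding proteins of small molecules had a median of 3.74 CPM over 9 genes. Gyg, glycogenin, which primes glycogen, had 153, 181 and 191 reads in control (9.09 ± 1.34 CPM) and 1, 0 and 0 in JAG1 libraries. The heme-binding Hebp2 had 162, 161 and 140 reads and none, at least 136-fold lower. B3gnt5, which starts the lacto-series of glycolipids, had 69, 75 and 95 reads and none. The retinol-binding Rbp2 had 68, 64 and 81 reads and none. Hebp2, B3gnt5 and Rbp2 were the members of this group at 0 in every JAG1 library. The fucosidase Fuca2 stood at 3.96 CPM, the progesterone-reducing Akr1c18 at 3.74 CPM, the arginine deiminase Padi1 at 3.22 CPM, the lipid-binding Sec14l2 at 2.99 CPM and the aminopeptidase Xpnpep2 at 2.64 CPM.

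The other 13 genes were given no role. Fam167a had 122, 93 and 108 reads in control, the noncoding Gm35612 had 81, 73 and 78, Medag, a protein of fat cell differentiation, had 77, 70 and 72, and A630095E13Rik had 58, 61 and 54. These 4 had no read in any JAG1 library and were at least 94.8-fold, 68.1-fold, 64.3-fold and 50.8-fold lower, respectively. 8430419L09Rik stood at 6.44 CPM in control. The rows Tmem254a, Tmem254b and Tmem254c stood at 5.43, 5.12 and 5.07 CPM. The lowest were Fam89a at 2.995 CPM, BB019430 at 2.48 CPM, Fam78b at 2.38 CPM, Tmem119, which marks microglia in the brain and is also made by bone cells, at 2.24 CPM and Pced1b at 2.14 CPM.

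Several rows are not independent. Tmem254a, Tmem254b and Tmem254c are copies side by side on chromosome 14 with near-equal counts. Their control reads were 126, 90 and 100, then 121, 87 and 90, then 118, 87 and 90, and each had 3, 0 and 0 in the JAG1 libraries. Prl2c3 and Prl2c4, which RefSeq holds as the same gene, had 54, 64 and 47 and 51, 59 and 43 reads in control and 2, 5 and 1 each in JAG1 libraries. Prl2c2, the next copy, missed the limits with 45, 59 and 46 against 2, 7 and 3. These rows may count the same reads more than once.

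Some genes lay close to the limits. Nearest to the lower limit of 30 in control were Robo2 and Enho, each with 30 in control library 3, and Pced1b with 31 there. Pced1b had 46, 47 and 31 reads in control and 3, 1 and 2 in JAG1 libraries. Nearest to the upper limit of 5 were Sox5, Tpm2 and Pard6g, with 13, 12 and 11 reads over the JAG1 libraries. Of the rows that had at least 27 reads in each control library and at most 7 in each JAG1 library, 26 lay outside the limits. Il1rl1, a receptor of interleukin-33, missed them by a library with 6 reads, at 339, 337 and 401 against 6, 1 and 4. Sarm1, an enzyme of axon loss, missed them by a control library with 28 reads, at 33, 28 and 37 against 0, 0 and 0. Tet1, an enzyme that oxidizes methylcytosine, had 27, 28 and 32 against 2, 2 and 0.

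Relatives of the 73 genes, taken as tested genes that share the stem of the symbol, did not all fall. In 33 families there were 137 tested relatives outside the 73, of which 58 (42.3%) were lower, 30 (21.9%) higher and 49 past neither threshold in JAG1 cells, against 27.7% lower and 27.4% higher over all tested genes. At least 4-fold lower were 18 relatives (13.1%), against 3.71% of all tested genes, and at least 4-fold higher were 8 (5.84%), against 2.21%. The median log2 fold change of the relatives was −0.15, beside 0.00 over all tested genes. Genes of a family share sequence and sometimes a cluster, so these counts are a description.

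In the SOX family, 5 of 8 tested relatives of Sox5 fell and 1 rose. Sox9, a driver of the astrocyte fate, fell from 181 ± 4.64 to 17.97 ± 1.25 CPM (log2 fold change −3.33, SE 0.07, adjusted p = 5.31e-11). Sox4 fell from 775 ± 85.4 to 146 ± 7.63 CPM (log2 fold change −2.41, SE 0.08). Sox11 and Sox21 also fell, the latter from 20, 24 and 11 reads to none, at least 16.1-fold. Sox2, a factor of neural stem cells, rose from 31.5 ± 1.08 to 63.4 ± 4.21 CPM (log2 fold change 1.01, SE 0.07, adjusted p = 4.66e-07).

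The semaphorins moved both ways, with 5 of 11 tested relatives of Sema6a lower and 3 higher. Sema3e, a secreted guidance cue, had 1, 0 and 3 reads in control and 1600, 1145 and 1339 in JAG1 libraries, a log2 fold change of 10.04 (SE 0.20, adjusted p = 5.31e-11). Sema6d rose from 0, 2 and 0 reads to 29, 14 and 21. Sema3b fell from 33.6 ± 3.10 to 1.24 ± 0.476 CPM (log2 fold change −4.74, SE 0.17), and Sema3a and Sema5a fell by 2.65 and 2.24 on the log2 scale. All 6 tested relatives of Pcdhb7 in the protocadherin beta cluster fell. Pcdhb5 had 94, 75 and 79 reads in control and 3, 6 and 8 in JAG1 libraries (log2 fold change −3.65, SE 0.31), and Pcdhb21 and Pcdhb22 had log2 fold changes of −4.42 and −2.31. Protocadherins are close copies, so reads may be split among them.

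Among matrix metalloproteinases, 3 of 6 tested relatives of Mmp9 fell and 1 rose. Mmp16 had no read in control and 220, 127 and 136 reads in JAG1 libraries, at least 183-fold higher against the floor of 3 reads over the control libraries. Mmp2, the other gelatinase, fell from 4.11 ± 0.794 to 0.537 ± 0.136 CPM (log2 fold change −2.94, SE 0.28, adjusted p = 4.47e-06). Mmp14, a membrane protease that activates MMP2, fell from 445 ± 36.5 to 167 ± 12.01 CPM (log2 fold change −1.41, SE 0.07). Beside Krt14, the keratin Krt19 rose from 1, 7 and 4 reads to 269, 195 and 218 (log2 fold change 5.96, SE 0.27, adjusted p = 1.12e-08).

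Glucose transporters beside Slc2a4 split, with 4 of 8 lower and 2 higher. The neuronal transporter Slc2a3 rose from 0.412 ± 0.130 to 8.86 ± 1.06 CPM (log2 fold change 4.39, SE 0.23) and the ubiquitous Slc2a1 from 35.4 ± 2.83 to 59.6 ± 2.32 CPM (log2 fold change 0.75, SE 0.07). The fructose transporter Slc2a5 fell from 6.45 ± 0.690 to 0.774 ± 0.438 CPM (log2 fold change −3.06, SE 0.29), and Slc2a10 went from 18, 10 and 23 reads to 1, 0 and 0. Kcnk3, an acid-sensitive potassium channel like Kcnk5, went from 23, 11 and 27 reads to none, at least 17.9-fold lower. Trpv2 rose from 12, 11 and 21 to 78, 48 and 50 reads.

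Cytoskeletal and polarity relatives also moved both ways. Tpm1 fell from 1908 ± 41.0 to 539 ± 8.015 CPM (log2 fold change −1.82, SE 0.05, adjusted p = 2.65e-10) and Tpm4 by 0.24 on the log2 scale, while Tpm3 had a log2 fold change of 0.02 (SE 0.05, adjusted p = 0.754). Pard3b, a partner in the Par complex, rose from 0.671 ± 0.205 to 4.99 ± 0.207 CPM (log2 fold change 2.88, SE 0.23), and Pard3 rose from 48.9 ± 2.87 to 60.8 ± 1.04 CPM. Pard6a fell from 45.1 ± 5.17 to 38.0 ± 1.17 CPM (log2 fold change −0.25, SE 0.09, adjusted p = 0.0321). Pard6b did not pass the threshold (log2 fold change 1.09, SE 0.56, adjusted p = 0.123). Arhgap29 rose by a log2 fold change of 3.94 and Cdc42ep2 fell by 2.76 on the log2 scale. Of 7 tested calpains beside Capn6, 4 rose and none fell. Akr1c13, beside Akr1c18, fell from 70.5 ± 1.996 to 2.59 ± 0.705 CPM (log2 fold change −4.78, SE 0.13).

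Members with few relatives had paralogs that ranged from lower to higher. Eif4e and Eif4e2 had log2 fold changes of 0.06 (SE 0.05, adjusted p = 0.284) and −0.01 (SE 0.06, adjusted p = 0.919) at 174 and 99.0 CPM in control, while Eif4e3 was close to absent. Elavl1 rose from 178 ± 16.8 to 223 ± 14.1 CPM (log2 fold change 0.33, adjusted p = 0.00304) where Elavl2 was at 0. Hebp1 fell by 1.62, Tcaf1 by 0.85, Clip2 by 0.83 and Mpzl1 by 0.63 on the log2 scale. Xpnpep1 rose by 0.33 and Xpnpep3 fell by 0.44. Erc1, Fuca1, Pced1a, Spon1, Clip1 and Clip4 did not pass the threshold.

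**Figure D4:**
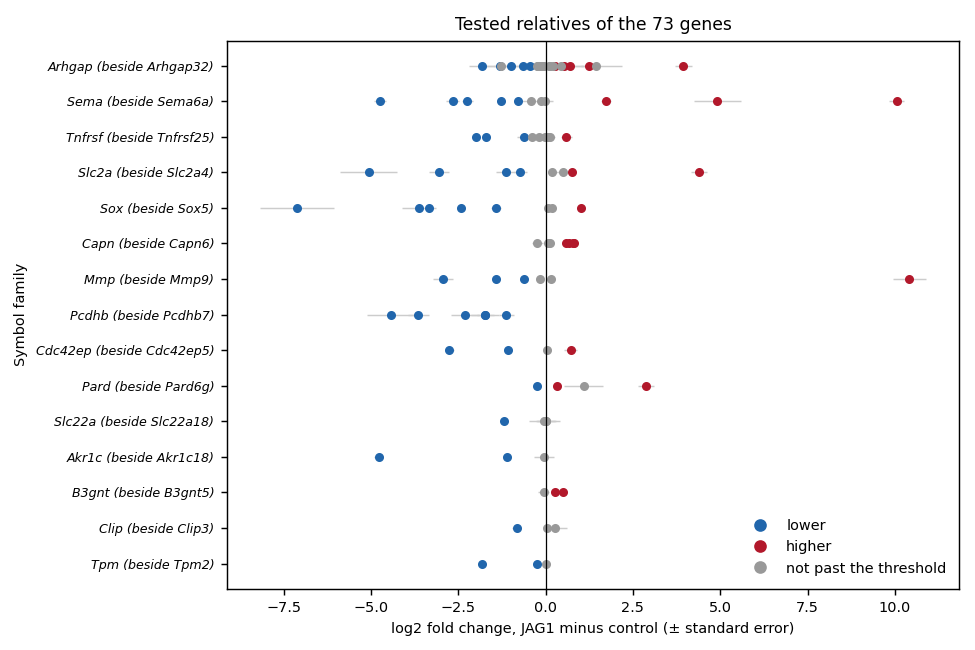
Log2 fold change (x axis, JAG1 minus control, with the standard error) of each tested relative outside the 73 genes, for families of the genes named here with at least 3 tested relatives (rows, with the member in parentheses). Blue points were lower, red points higher and grey points past neither threshold at an adjusted p of 0.05. The protocadherins, the tropomyosins and the Akr1c, Clip and Slc22a families hold no red point. The calpains and the B3gnt family hold no blue one, while the semaphorins, SLC2 transporters and metalloproteinases hold both.

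The 73 genes were spread over 18 chromosomes. Chromosome 7 held 8 (10.96%, against 7.26% of the genes with 30 reads in each control library), and chromosome 14 held 7 (9.59%, against 3.40%), of which 3 were the Tmem254 rows. Chromosomes 12 and 19 held none. On chromosome 15, 346 of 459 tested genes were lower in JAG1 cells and the median log2 fold change was −0.53, and on chromosome 19, 313 of 422 were higher with a median of 0.61. Only Pced1b, of the 73, lies on chromosome 15. Pairs of members within 1 Mb were few. Mmp9 and Slc13a3 lay 449 kb apart, Zfp941 and Eps8l2 517 kb and Tmem119 and Trpv4 822 kb.

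The nearest tested genes on either side of the 73 gave 139 distinct neighbors at a median gap of 76.3 kb. Of these, 48 (34.5%) were lower, 27 (19.4%) higher and 64 past neither threshold, against 27.7% lower and 27.4% higher over all tested genes, and the median log2 fold change was −0.07. At least 4-fold lower were 10 and at least 4-fold higher were 4, against 3.71% and 2.21% of all tested genes. Both neighbors fell at 10 members, a count for which no share over all tested genes was taken. Among them were Akr1c18 and Pcdhb7, whose neighbors are relatives in the same cluster. Pced1b was another, on chromosome 15, where 346 of 459 tested genes were lower. The closest large fall was beside Fendrr. Foxf1, a forkhead factor of mesenchyme that starts 1.28 kb from Fendrr, had 373, 323 and 419 reads in control and 37, 15 and 16 in JAG1 libraries (log2 fold change −3.85, SE 0.20, adjusted p = 3.14e-08). Plekhg5, 0.124 kb from Tnfrsf25, fell by 1.93 on the log2 scale. Wnt5a, a secreted Wnt ligand 26.0 kb from Erc2, had 27, 22 and 29 reads against 1, 4 and 2. Perp, an epithelial adhesion protein 299 kb from Hebp2, fell by 3.60 on the log2 scale, and Pmaip1, a cell death protein 167 kb from Ccbe1, fell by 3.86.

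Some neighbors moved the other way. Slco5a1, 5.36 kb from Sulf1, rose from 3, 3 and 5 reads to 127, 81 and 78 (log2 fold change 4.83, SE 0.29, adjusted p = 1.12e-07). Krt19 lies 57.2 kb from Krt14 and rose as given above. Gata4, a zinc finger factor 165 kb from Fam167a, rose from 4, 3 and 1 reads to 17, 18 and 20, and Ces1g, 473 kb from Gnao1, rose by a log2 fold change of 3.64.

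At the imprinted locus, transcripts that overlap Snurf or Snrpn differed. Snhg14, the long host RNA of small nucleolar RNAs, went from 24, 18 and 17 reads to none, at least 17.3-fold lower. C230091D08Rik had 177, 191 and 142 reads in control and 191, 118 and 110 in JAG1 libraries (log2 fold change −0.11, adjusted p = 0.573), and Gm7367 fell by 0.24 on the log2 scale. Amigo2, which overlaps Pced1b, fell by 2.13.

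**Figure D5:**
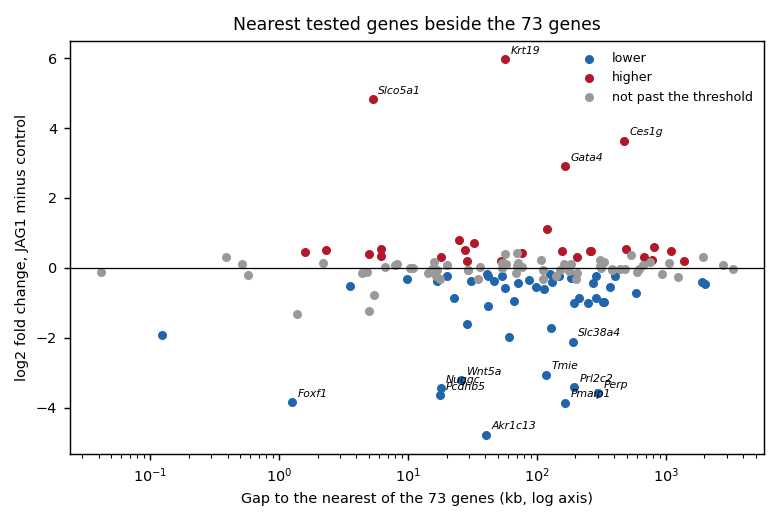
Log2 fold change (y axis, JAG1 minus control) of the 139 tested neighbors against their gap to the member beside them (x axis, kb, log axis). Blue points were lower, red points higher and grey points past neither threshold at an adjusted p of 0.05, and named genes changed at least 4-fold. Most points lie near 0 at every gap, with Foxf1, Slco5a1 and Krt19 among the exceptions under 100 kb.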

How the data were processed

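RNA was measured in 3 control and 3 JAG1-overexpressing libraries of Ink4a-/- mouse astrocytes. The authors deposited, per library, a table of 23282 gene symbols with raw read counts and normalized log2 values. The submitters' processing notes name Bowtie2, bedtools, edgeR, GRCm38 and mm10 with no versions, and the role of each and any use of strand are not given in the sources used here. Every comparison rests on the deposited counts. The authors' log2 values served to look at rows with 0 reads. Symbols were matched to RefSeq GRCm38.p6: 22059 by symbol, 1071 by synonym and 152 by neither. Promoters came from RefSeq, with the first start in the promoter table used. For some genes, among them Stox2, Sox5 and Medag, this start lies well inside the RefSeq span of the gene.

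Genes were kept by filterByExpr at a minimum of 10 counts (11712 genes) and tested with the quasi-likelihood test of edgeR 4.0.16 (R 4.3.3) after TMM normalization, with Benjamini-Hochberg adjustment at 0.05. The common biological coefficient of variation was 0.0770. The script was tested on simulated data. Alternatives used DESeq2 1.42.0, limma 3.58.1 (voom), other scalings and filters, a replicate block and leaving out each library. Folds are ratios of summed normalized counts with exact 95% binomial intervals for counting error only, or bounds against a floor of 3 reads over the summed libraries of a group. The depth made 3 reads worth 0.148 to 0.206 CPM in a library.

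The members, the marker lists and the rules were chosen with earlier results of these data known. Of the members, 2 are not reported here by name or drawn by name. The others were named with their control level, and all 6 values were given for the 15 highest, for members at 0 in every JAG1 library and for the 3 nearest to either limit. Relatives were named where changed at least 4-fold or where a member had at most 3. The stems Fam, Tmem, Zfp, Gm, BB and Ptk name no family and were left out. Some further relatives were named after their values were seen. Roles were assigned from general knowledge once the members were known, and neighbors, rows just outside the limits and printed promoters were picked after their values were seen.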

Additional observations from a re-analysis of the deposited data

How the results depend on the processing

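With at most 10 reads allowed in each JAG1 library, 116 genes met the limits in place of 73. With the other limits tried, 107 genes met them at 20 or more control reads, 60 at 50 or more, 52 at 3 or fewer JAG1 reads and 57 on TMM-scaled counts. Leaving out each library in turn gave 73 to 84 genes, a count that could only stay or rise because each library sets a limit. With a fold limit of 2, the genes called over all tested fell to 994 lower and 639 higher. Leaving out each library gave 2792 to 3344 lower and 2724 to 3256 higher, and Jag1 kept a log2 fold change of 0.37 to 0.52. All 73 genes were called lower under every alternative, and their 1022 values under the alternatives kept direction and call, which their choice on this contrast makes likely. Scalings moved the median of all genes by less than 0.1 on the log2 scale. No called relative or neighbor changed direction under the other scalings, filters, tests or the block, while DESeq2 lost 2 relatives and 7 neighbors, and the filter at a mean of 10 counts left 3 relatives named as fallen, Pcdhb21, Slc2a10 and Sox21, untested. The replicate numbers shared by the groups were not taken to pair the libraries, since the correlations of same-numbered deviations were 0.148, 0.0614 and 0.119. Every library correlated best with its own number, which is a hint from the data only. With a replicate block, 3331 genes were lower and 3380 higher, all 73 members were lower, and Jag1 had a log2 fold change of 0.46. With the last annotated start in place of the first, an alternative chosen after seeing the data, 41.2% of the 51 promoters reached the CpG limit in place of 35.3%. Most of the 51 genes have only 1 start in the promoter table, so their promoters could not change. Depth limits the JAG1 values: 3 reads were worth 0.150 to 0.206 CPM there, so levels under that were not resolved.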

Other observations

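The deposited log2 values did not treat an absence of reads alike in all libraries. In JAG1 library 2, 3776 of 9321 rows with 0 raw reads had an authors' log2 value above 0, up to 0.625, and in JAG1 library 3 this was so for 3891 of 9436 rows, up to 0.333. In JAG1 library 1 and in the 3 control libraries no row with 0 reads had such a value. Among the 73 genes, the 34 at 0 reads in JAG1 library 2 had authors' log2 values up to 0.594 and the 37 in JAG1 library 3 up to 0.322. On that scale the difference of the 73 genes, JAG1 minus control, ran from −7.76 to −3.18 with a median of −5.59.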
